A study of Mus musculus with 15 samples.

Results

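Genes of the red cell membrane and its skeleton were followed in whole blood RNA of 15 C57BL/6 mice. The set holds 8 genes, Sptb, Ank1, Slc4a1, Epb41, Epb42, Rhag, Rhd and Kel, which were taken by symbol after the Ensembl identifiers of the count files were matched to GENCODE, and 8 of 8 were found among 55416 genes. The 15 libraries, 1 per mouse, fall into 3 groups of 5. Mice of the early and late neck dissection (ND) groups carried 4MOSC1 tumors, a mouse oral squamous cell carcinoma line, in the tongue for 10 days, and received 2 doses of αCTLA-4, an antibody against an immune checkpoint receptor, with surgical removal of the neck lymph nodes either early or late. The untreated group had neither antibody nor surgery, and its labels carry the same tumor transplantation. The text of the study and a legend in it differ on whether late ND came before or after the blood was drawn, so "late ND" below names the group. Blood came from a cheek bleed with clots removed, and levels are relative to the other RNA of a library. Fewer red cells in the sample, less RNA per red cell and more RNA of other cells therefore cannot be told apart in any value below.

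The red cell membrane rests on a net of spectrin, whose β chain is encoded by Sptb. Ankyrin 1 (Ank1) ties β spectrin to the anion exchanger band 3 (Slc4a1), and protein 4.2 (Epb42) braces that link from the inner face of the membrane. Protein 4.1 (Epb41) joins spectrin to actin at the corners of the net. Rhag and Rhd form the Rh complex, in which Rhag transports ammonia and Rhd is the Rh antigen protein, and Kel is a membrane endopeptidase that is linked to the transporter-like protein Xk. Circulating red cells have no nucleus, and most of their RNA is left over in reticulocytes, the youngest red cells. Spectrins, ankyrins and proteins of the 4.1 family also have widely expressed relatives, which are described separately below.

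In GRCm39 the skeleton genes lie on different chromosomes: Sptb on the minus strand at chr12:76627247-76757321, Ank1 on the plus strand at chr8:23464860-23640513, Epb41 on the minus strand at chr4:131650724-131802632 and Epb42 on the minus strand at chr2:120848372-120867553. Slc4a1 lies on the minus strand at chr11:102239650-102257029. Of the blood group genes, Rhag lies on the plus strand at chr17:41122017-41151645, Rhd on the plus strand at chr4:134591845-134623487 and Kel on the minus strand at chr6:41663264-41681273. All 8 are protein coding, with 10 to 47 separate exon stretches and 1687 to 17195 exon bases. Exons of a gene on the opposite strand cover 13.2% of the exon bases of Rhd (Tmem50a), 8.91% of Kel, 7.46% of Ank1, 2.33% of Epb41 and 0.13% of Sptb, and the strand setting of the counting is not given in the sources used here, so reads of these stretches could belong to either gene.

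RefSeq promoter windows of GRCm38.p6, which hold 250 bases before and 50 after a gene's start, were found for 6 of the 8 genes (8 windows, 3 of them at Epb41). A word read by the GATA family, whose member Gata1 drives red cell genes, was searched on both strands in the forms AGATAA and TGATAA, together with their variants that end in G in place of the last A. Such a word was present in 7 of the 8 windows, against 29.8% of all 32851 windows. Each of the 6 genes had it in at least 1 window, for which no share over all genes was taken. The word CCNCNCCC, a C-rich letter pattern like the sites of Klf-type factors, was present in 4 windows at 3 genes, against 49.5% of all windows, and 3 of the 8 windows held both, against 10.2%. The 100-base stretches below, all before the start site, are shown because their windows hold a GATA word upstream of the start. GATA words and their reverse complements are in capitals, as is one CCNCNCCC match at Epb41.
Kel, minus strand of chr6:41704326-41704425: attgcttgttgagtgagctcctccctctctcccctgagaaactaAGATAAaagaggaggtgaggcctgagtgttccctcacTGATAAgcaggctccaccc
Rhd, plus strand of chr4:134864436-134864535: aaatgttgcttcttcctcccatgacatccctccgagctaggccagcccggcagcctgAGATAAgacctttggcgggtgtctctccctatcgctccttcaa
Rhag, plus strand of chr17:40811049-40811148: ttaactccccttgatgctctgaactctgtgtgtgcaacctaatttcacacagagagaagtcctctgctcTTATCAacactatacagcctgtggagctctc
Epb42, minus strand of chr2:121037028-121037127: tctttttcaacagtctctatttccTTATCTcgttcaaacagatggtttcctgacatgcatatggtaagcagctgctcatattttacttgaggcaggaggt
Epb41, minus strand of chr4:132075464-132075563: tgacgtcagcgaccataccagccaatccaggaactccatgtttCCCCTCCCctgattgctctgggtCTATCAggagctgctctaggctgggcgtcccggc
The GATA words begin 56 and 19 bases before the start of Kel, 43 before that of Rhd, 31 before that of Rhag, 226 before that of Epb42 and 184 before 1 of the starts of Epb41. In the window of Sptb the word begins 12 bases after the start. These matches describe letters in a window and say nothing of binding.

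Some measures of the libraries bear on all values. Between 5527108 and 13924361 counts per library fell on genes, with more in each late ND library (lowest 7849602) than in each early ND library (highest 7182346). The 4 adult hemoglobin genes took 14.9% to 29.3% of gene counts in late ND libraries, 38.3% to 64.1% in early ND libraries and 31.6% to 61.7% in untreated libraries (late against early, exact permutation test of means, two-sided, p = 0.00794, the smallest possible here, and 0.0179 after adjustment over 9 tests). Reads of the 18S rRNA gene Rn18s-rs5 were scarce in 3 libraries (untreated 2, late 2 and late 3), at 313 to 766 CPM (counts scaled to a common sum per library, here by the library total) against 13402 to 105889 in the other 12. The 18S level also differed between groups, since each late ND library (highest 25967 CPM) was below each early ND library (lowest 34456 CPM; exact permutation test of means, two-sided, p = 0.00794, adjusted p = 0.0179). Skin gland genes summed to over 500 CPM in untreated 5, early 3 and late 5. The summed level of 8 neutrophil markers ran from 5691 to 14868 in late ND, 2425 to 7351 in early ND and 4525 to 11409 in untreated libraries, with 8 of 8 detected in all 15 libraries. That of 6 monocyte markers ran from 895 to 1409 in late ND, 535 to 1205 in early ND and 531 to 926 in untreated libraries. In edgeR 0 neutrophil markers were called, although 7 were higher in late than in early ND at an unadjusted p under 0.05. Of the monocyte markers 1 was called higher in late than in early ND, where 333 of 13315 genes tested were called higher. In late ND against untreated mice 2 were called higher, where 134 of 13547 genes tested were. Sums of 6 T cell markers ran from 173 to 206 in late ND, 148 to 280 in early ND and 204 to 325 in untreated libraries. In the same order, sums of 7 platelet markers ran from 1536 to 2268, 1928 to 3715 and 1771 to 2884. Those of 5 B cell markers ran from 354 to 1042, 653 to 1111 and 564 to 859. Of these markers 0 were called between late and early ND. Against untreated mice 1 T cell marker was called lower in late ND, where 2.01% of all genes tested were. The part of 18S and of RNA of these cell types in the results below was not tested. Levels below are CPM after TMM normalization over the 15 libraries, a scaling that sets the bulk of genes level between libraries.

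Most of the 8 genes were at lower relative levels in late ND than in early ND blood. In edgeR's quasi-likelihood test, with p-values adjusted over 13315 genes, 6 of the 8 genes were lower in the late ND group: Sptb, Ank1, Epb41, Epb42, Slc4a1 and Kel. Their fold changes lay between 2.92-fold and 7.40-fold lower on the TMM scale. With library totals as the scale, the median gene rose by 0.86 (log2), and 137 of 13315 genes were called lower and 8908 higher. On that scale 5 of the 6 stayed called, with log2 fold changes from -1.89 for Epb42 to -1.42 for Ank1. Sptb did not pass there, at -0.59 (SE 0.28, adjusted p = 0.0589, edgeR). On the TMM scale Rhd did not pass, Rhag was below the filter on low counts, and none was higher. Among all genes tested on the TMM scale, 2.48% were called lower. Each early ND library except early 1 stood above each late ND library for all 8 genes, so the overlap described below comes from early 1.

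The β spectrin gene Sptb had 96.9, 12.04, 23.0, 51.9 and 9.67 CPM in untreated libraries 1 to 5, 10.4, 37.4, 21.5, 43.3 and 45.2 CPM in early ND libraries 1 to 5, and 11.6, 7.57, 8.50, 13.4 and 11.4 CPM in late ND libraries 1 to 5. The late ND values were low and close together, and early 1, untreated 2 and untreated 5 lay among them. The log2 fold change of late against early ND was -1.55 (SE 0.33, adjusted p = 0.0253, edgeR), from a mean of 31.6 ± 15.04 to 10.5 ± 2.42 CPM (SD, n = 5 each). Sptb lost its call with library totals, when all 3 groups shared 1 fit (adjusted p = 0.0836, edgeR), and without early 2, early 4, late 3 or late 5.

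Ank1, which anchors spectrin to band 3, had 47.4, 5.497, 11.2, 17.6 and 2.10 CPM in untreated, 2.93, 16.7, 9.03, 14.1 and 18.6 CPM in early ND and 3.54, 2.08, 1.01, 3.54 and 1.77 CPM in late ND libraries. Early 1 and untreated 5 fell within the range of the late ND libraries. Ank1 was 5.09-fold lower in the late ND group, with a log2 fold change of -2.35 (SE 0.46, adjusted p = 0.0191, edgeR). These levels rest on 23 to 52 counts per late ND library and 23 to 101 per early ND library.

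Epb41, protein 4.1, had by far the highest counts of the set, with 5039.7, 611, 2280.0, 2667 and 669 CPM in untreated, 666, 3305, 2078, 3853 and 2707 CPM in early ND and 545, 286, 319, 572 and 341 CPM in late ND libraries. No late ND library reached the lowest of the other 10, although untreated 2, untreated 5 and early 1 came close. Its log2 fold change was -2.59 (SE 0.41, adjusted p = 0.0126, edgeR), or 6.01-fold lower.

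Epb42, protein 4.2, was the gene with the largest fitted change of the set at 7.40-fold lower (log2 fold change -2.89, SE 0.55, adjusted p = 0.0178, edgeR). It had 72.8, 8.42, 35.4, 44.3 and 6.61 CPM in untreated, 5.09, 34.8, 22.4, 52.7 and 58.3 CPM in early ND and 7.99, 3.81, 1.97, 6.43 and 3.03 CPM in late ND libraries. Early 1 lay below late 1 and late 4, while the other 4 early ND libraries were at least 22.4 CPM.

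Slc4a1, the anion exchanger that exchanges chloride for bicarbonate, had 527, 89.3, 286, 345 and 83.8 CPM in untreated, 48.3, 253, 142, 419 and 408 CPM in early ND and 43.3, 32.98, 25.0, 55.3 and 29.1 CPM in late ND libraries. It fell 6.73-fold between early and late ND (log2 fold change -2.75, SE 0.48, adjusted p = 0.0126, edgeR). The groups overlapped at early 1, which was below late 4 only.

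Kel, the Kell endopeptidase, had 20.1, 3.34, 14.7, 15.04 and 4.03 CPM in untreated, 3.18, 9.61, 6.84, 15.5 and 15.3 CPM in early ND and 2.72, 1.40, 1.14, 2.44 and 1.58 CPM in late ND libraries. Each late ND library was below each of the other 10. Its log2 fold change was -2.40 (SE 0.41, adjusted p = 0.0126, edgeR), on 25 to 35 counts per late ND library.

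Counts of the Rh genes were low. Rhag had 6.03, 1.04, 2.30, 3.38 and 0.645 CPM in untreated, 0.637, 0.994, 1.64, 2.89 and 3.27 CPM in early ND and 0.635, 0.441, 0.307, 0.517 and 0 CPM in late ND libraries. The 0 counts of late 5 allow up to 0.189 CPM (3 counts, counting error only), and no library held more than 20 counts, so Rhag was not tested. The late ND values did not overlap with those of either other group, but early 1 and late 1 differed by less than the worth of 1 count. Without a filter on low counts its log2 fold change of late against early ND was -2.13 (SE 0.62, adjusted p = 0.0510, edgeR), and DESeq2's Wald test gave -2.27 (SE 0.63, adjusted p = 0.00748).

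Rhd had 6.43, 2.71, 8.06, 6.76 and 1.29 CPM in untreated, 1.53, 3.15, 3.15, 7.94 and 8.73 CPM in early ND and 1.91, 2.20, 1.93, 2.29 and 1.64 CPM in late ND libraries. Its late ND values spanned a narrow range, at a mean of 1.99 ± 0.26 CPM (SD, n = 5), and early 1 and untreated 5 were below all of them. The difference from early ND, a log2 fold change of -1.18 (SE 0.41), did not pass after adjustment (adjusted p = 0.102, edgeR). DESeq2's Wald test called Rhd lower at an adjusted p of 0.0354.

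**Figure D1:**
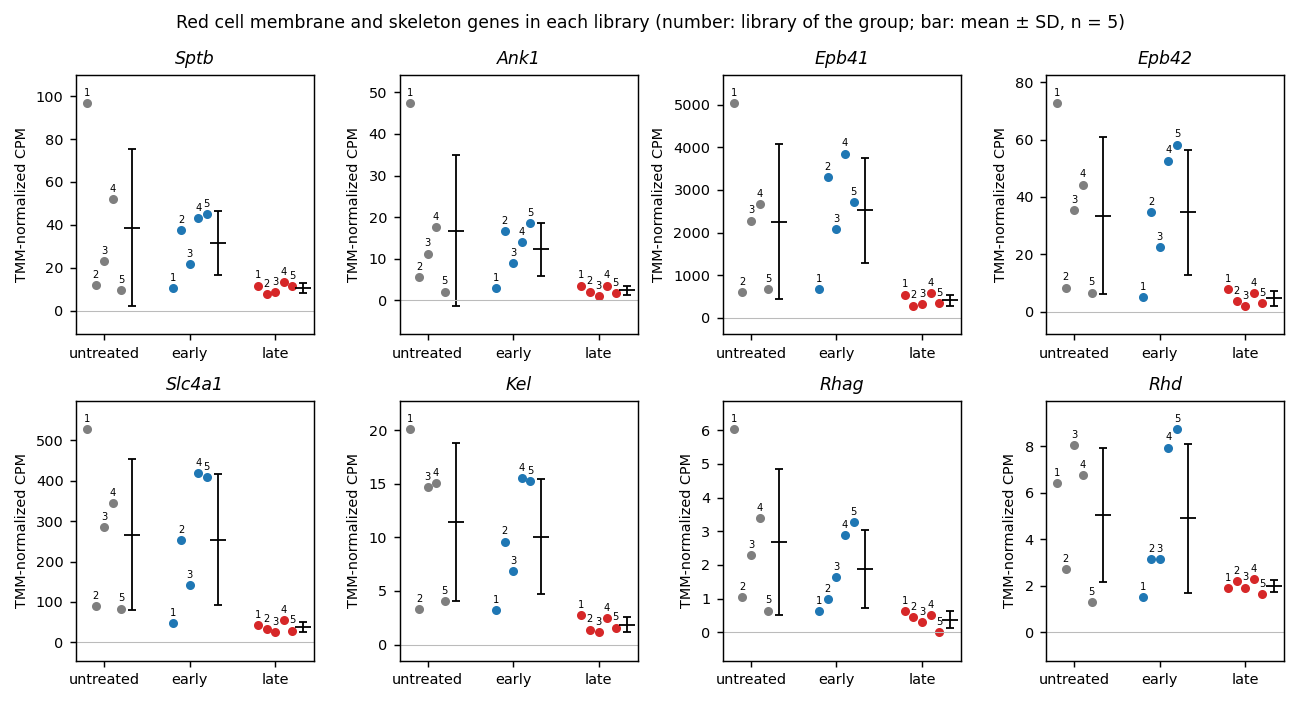
TMM-normalized CPM (y axis, linear) of the 8 genes in each library of the untreated, early ND and late ND groups; each point is 1 library with its number, and the black bar is the mean ± SD (n = 5). Late ND libraries form a low and narrow cluster in each panel, and early 1, untreated 2 and untreated 5 sit near them.

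For 3 of the 8 genes, Epb41, Rhag and Kel, every late ND library was below every early ND library. This separation was seen for 2.93% of the 13315 genes tested, which do not include Rhag. The highest and the lowest early ND library differed 4.33-fold for Sptb and 11.4-fold for Epb42, against 1.77-fold and 4.05-fold among late ND libraries. Early 1 ranked among the 8 lowest of the 15 libraries for 8 of 8 genes, and its level was below the highest late ND library for 5. Untreated 5 also ranked among the 8 lowest for 8 of 8 genes and was below the highest late ND library for 4, and untreated 2 ranked there for 7 and was below it for 1. The hemoglobin share of early 1 was the lowest of the early ND group, at 38.3%.

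The call counts depended on single libraries. With 1 library left out at a time, from 3 to 7 of the 8 genes were lower in late than in early ND: 3 (Slc4a1, Epb41 and Kel) without early 4 or without late 3, and 7 without early 1. Over all genes tested, 113 of 13800, 106 of 13323 and 332 of 13659 were called lower in these fits. Without untreated 2, late 2 and late 3, the libraries poor in 18S, 0 of 8 passed in edgeR, although 8 of 8 had an unadjusted p under 0.05. Of all 13440 genes 0 were called lower there, so the loss was not one of the members alone, and adjusted p-values of the 6 genes named above ran from 0.0557 to 0.0872. Their log2 fold changes there were -2.58 for Slc4a1 and -2.38 for Epb41, against -2.75 and -2.59 with all libraries. Without the libraries with skin gland RNA, the 6 genes were called, where 489 of 13168 genes were called lower.

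Compared with untreated mice, late ND mice had lower levels of 5 of the 8 genes: Ank1, Epb41, Epb42, Slc4a1 and Kel (edgeR, adjusted over 13547 genes, of which 2.01% were called lower). Slc4a1 had a log2 fold change of -2.84 (SE 0.48, adjusted p = 0.0242) and Kel one of -2.58 (SE 0.49, adjusted p = 0.0242). Ank1 was just inside the threshold at an adjusted p of 0.0485, with a log2 fold change of -2.75 (SE 0.67). Epb41 and Epb42 had log2 fold changes of -2.45 and -2.83 (SE 0.53 and 0.62, adjusted p = 0.0311 and 0.0332). Sptb, at -1.83 (SE 0.53, adjusted p = 0.0943), and Rhd, at -1.26 (SE 0.40, adjusted p = 0.127), did not pass, and Rhag was not tested.

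For 4 of the 8 genes, Slc4a1, Epb41, Rhag and Kel, every late ND library was below every untreated library. This was so for 2.98% of the 13547 genes tested, which do not include Rhag. The calls against untreated mice were less stable than their fold changes. Leaving out any 1 late ND library or untreated 3 left 0 of the 8 genes past the threshold in edgeR, with at least 7 at an unadjusted p under 0.05, and in those fits 0 of all genes tested were called lower. Leaving out untreated 1 or untreated 4 left Slc4a1 and Kel, where 110 of 14150 and 120 of 14090 genes were called lower. Leaving out untreated 5 gave 8 of 8, where 409 of 14036 genes were called lower. The log2 fold change of Slc4a1 stayed between -3.07 and -2.43 over these 10 fits and that of Kel between -2.86 and -2.30. Without the libraries poor in 18S 0 of 8 and 0 of all 13051 genes passed (adjusted p = 0.107 for Slc4a1 and for Kel, edgeR). Without the libraries with skin gland RNA 8 of 8 passed, where 358 of 13688 genes were called lower. With DESeq2's Wald test 8 of 8 passed, where 540 of 28562 genes were called lower.

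Early ND and untreated mice did not separate. Of the 12151 genes tested by edgeR, 0 (0%) were called in either direction, where DESeq2's Wald test called 1 gene, and 0 of the 7 members tested had an unadjusted p under 0.05 in edgeR. DESeq2 called 0 of the 8. Log2 fold changes ran from -0.36 for Ank1 (SE 0.67) to 0.16 for Epb41 (SE 0.57), and that of Slc4a1 was -0.07 (SE 0.58). Standard errors of this size do not show that the groups were alike. The spread among untreated mice was the widest of the 3 groups for 7 of the 8 genes, with a coefficient of variation of 108% for Ank1 and 94.6% for Sptb. The comparisons of late ND with early ND and with untreated mice share the late ND libraries and are not independent of each other.

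**Figure D2:**
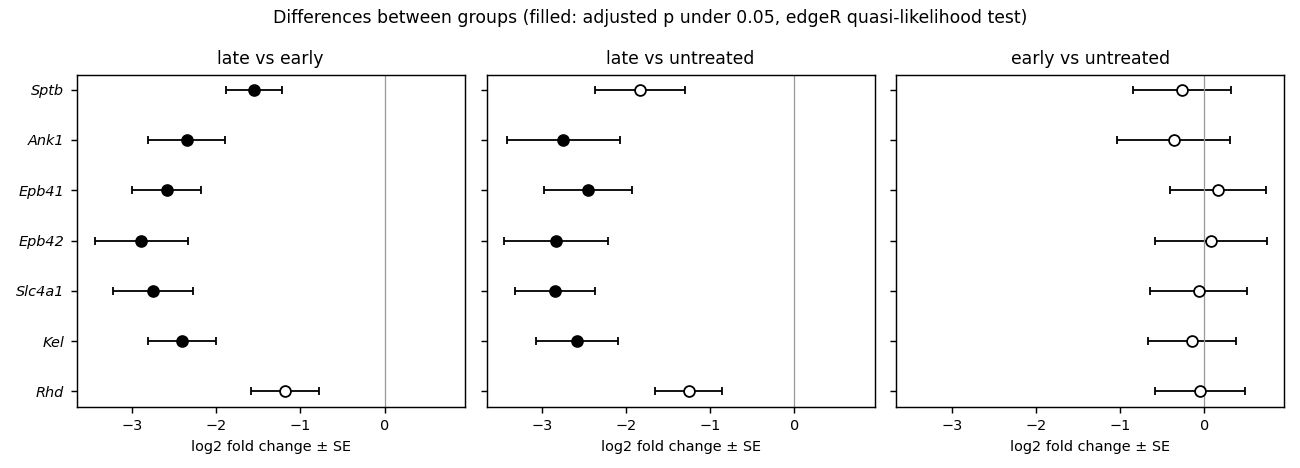
Log2 fold changes ± SE (x axis) of the 7 genes tested, in each of the 3 comparisons; filled points passed an adjusted p of 0.05 in edgeR's quasi-likelihood test. Points for late ND lie at negative values in both left panels, with 6 and 5 filled, and those of early ND against untreated mice lie around 0.

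Levels of different genes were compared per kilobase of exon, in CPM per kb. Epb41 was highest in each group, at 131 ± 105 in untreated, 147 ± 71.6 in early ND and 24.0 ± 7.86 in late ND libraries (SD, n = 5 each). Slc4a1 came second, at 54.4 ± 38.2, 52.0 ± 33.3 and 7.59 ± 2.50, and Epb41 exceeded it in 15 of 15 libraries. The other 6 genes lay far below, from 0.807 to 6.40 in early ND libraries and from 0.162 to 1.18 in late ND libraries. In early ND libraries their order was Epb42 (6.40), Kel (3.64), Rhd (2.90), Sptb (2.59), Ank1 (0.907) and Rhag (0.807). Ank1 and Rhag were above one another in different libraries and were not separable there. In late ND libraries Rhd (1.18 ± 0.153) followed Slc4a1 and stood above Sptb (0.864 ± 0.199) in 5 of 5 libraries, and Epb42 (0.857) and Kel (0.669) came after Sptb, of which Sptb exceeded Epb42 in 2 of 5.

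Since hemoglobin RNA also fell, the genes were set against hemoglobin in the same library, which does not use the TMM scale. The mix of hemoglobin genes was not the same in all libraries. In untreated 2, late 2 and late 3, Hbb-bs had fewer counts than Hba-a1 (1036765 against 1859935, 616578 against 1388977 and 705619 against 1547591). In each of the other libraries Hbb-bs had more. The part of this mix in the values relative to hemoglobin was not tested separately. Sptb had 3.17 to 6.72 counts per 100000 hemoglobin counts in early ND and 5.62 to 13.1 in late ND libraries, and Slc4a1 14.7 to 57.8 and 21.0 to 36.0. Epb41 had 202 to 593 in early ND and 242 to 389 in late ND libraries, and Ank1, Epb42 and Kel also overlapped between the groups. Rhd ran from 0.464 to 1.24 in early ND and from 0.923 to 2.40 in late ND libraries, and 3 of 5 late ND libraries were above each early ND library. In an edgeR fit with summed hemoglobin counts as the library scale, 0 of the 7 genes tested (Rhag was not) differed between late and early ND, 0 at an unadjusted p under 0.05, where 97.2% of all genes tested were called, and 0 differed between late ND and untreated mice, where 95.4% were called. The log2 differences of late against early ND relative to hemoglobin had wide 95% intervals, from -1.40 to 0.45 for Slc4a1, -1.32 to 0.43 for Epb41, -1.72 to 0.30 for Epb42, -1.36 to 0.88 for Kel, -1.34 to 0.83 for Ank1, -0.31 to 1.63 for Sptb and -0.09 to 2.23 for Rhd.

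**Figure D3:**
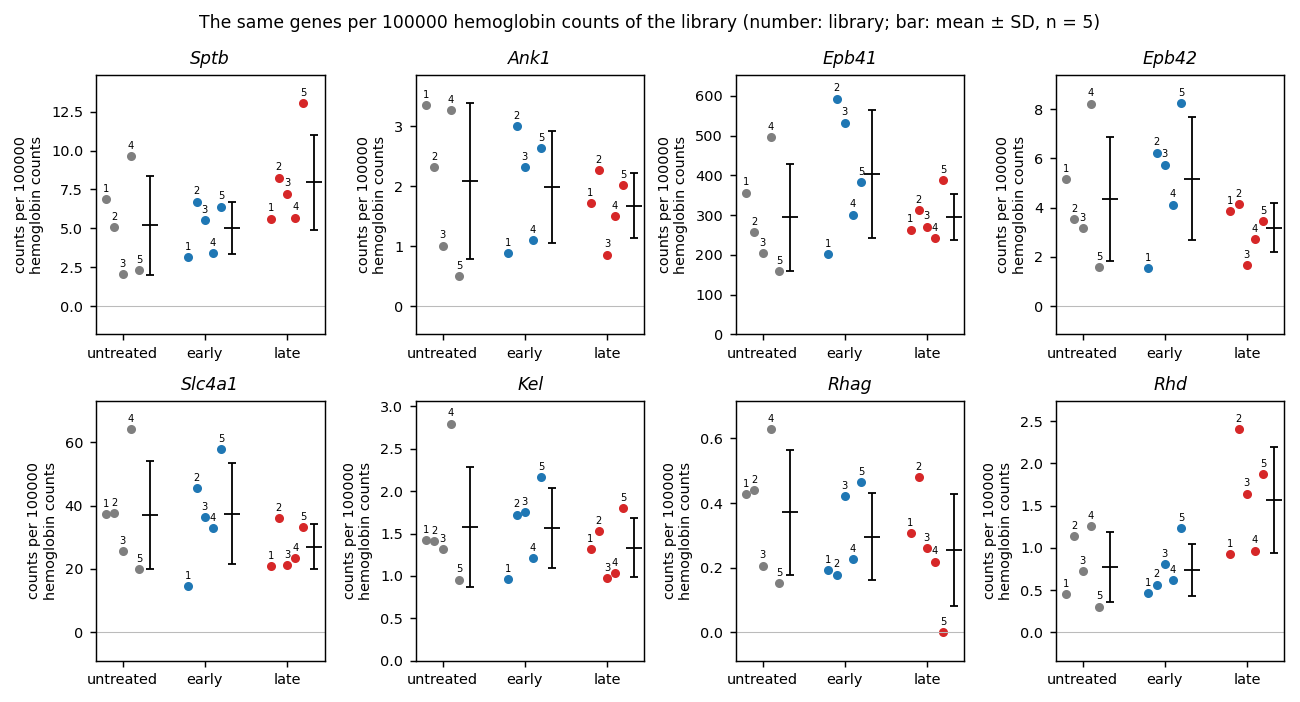
Counts of each gene per 100000 hemoglobin counts of the same library (y axis, linear) in the untreated, early ND and late ND groups; points are libraries with their number, and bars the mean ± SD (n = 5). The groups overlap in each panel, and the highest points of Sptb and Rhd are late ND libraries.

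With Slc4a1 as the library scale, 0 of the 7 other genes differed between late and early ND in edgeR, 0 at an unadjusted p under 0.05 and Rhag not tested, where 91.8% of all genes tested were called. The log2 differences relative to Slc4a1 were -0.03 for Epb41 (95% interval -1.32 to 1.25), -0.16 for Epb42 (-1.57 to 1.25), 0.14 for Kel (-1.33 to 1.62), 0.20 for Ank1 (-1.25 to 1.66), 1.02 for Sptb (-0.38 to 2.41) and 1.44 for Rhd (-0.07 to 2.95). Against untreated mice 96.7% of genes were called, and of the members Rhd was higher relative to Slc4a1, by 1.42 on the log2 scale (SE 0.70, adjusted p = 0.0425). That call rested on single libraries, with adjusted p-values from 0.0294 to 0.0932 when 1 library was left out (edgeR). It was lost without each single library of these 2 groups except untreated 2 and late 4. It was also lost without the libraries poor in 18S (adjusted p = 0.135, edgeR). Rhd had 8 to 55 counts per library here, and 13.2% of its exon bases lie opposite exons of Tmem50a, to which reads could belong.

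Ratios of partner genes per kilobase were taken within each library. Epb42 per Slc4a1 was 0.102 ± 0.0225 in untreated, 0.121 ± 0.0178 in early ND and 0.108 ± 0.0353 in late ND libraries, and Ank1 per Slc4a1 was 0.0193 ± 0.00888, 0.0195 ± 0.00502 and 0.0224 ± 0.00532 (SD, n = 5 each). Both ratios overlapped between all groups. Sptb per Slc4a1 was 0.108, 0.0923, 0.137, 0.0977 and 0.158 in late ND libraries, above each early ND library (0.0416 to 0.0870) and each untreated library (0.0324 to 0.0739). Such a separation from early ND, relative to Slc4a1, was seen for 33.2% of all genes tested, and from untreated libraries for 75.5%, and in the fit on Slc4a1 above Sptb was not called in either comparison (adjusted p = 0.157 and 0.0759, edgeR).

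**Figure D4:**
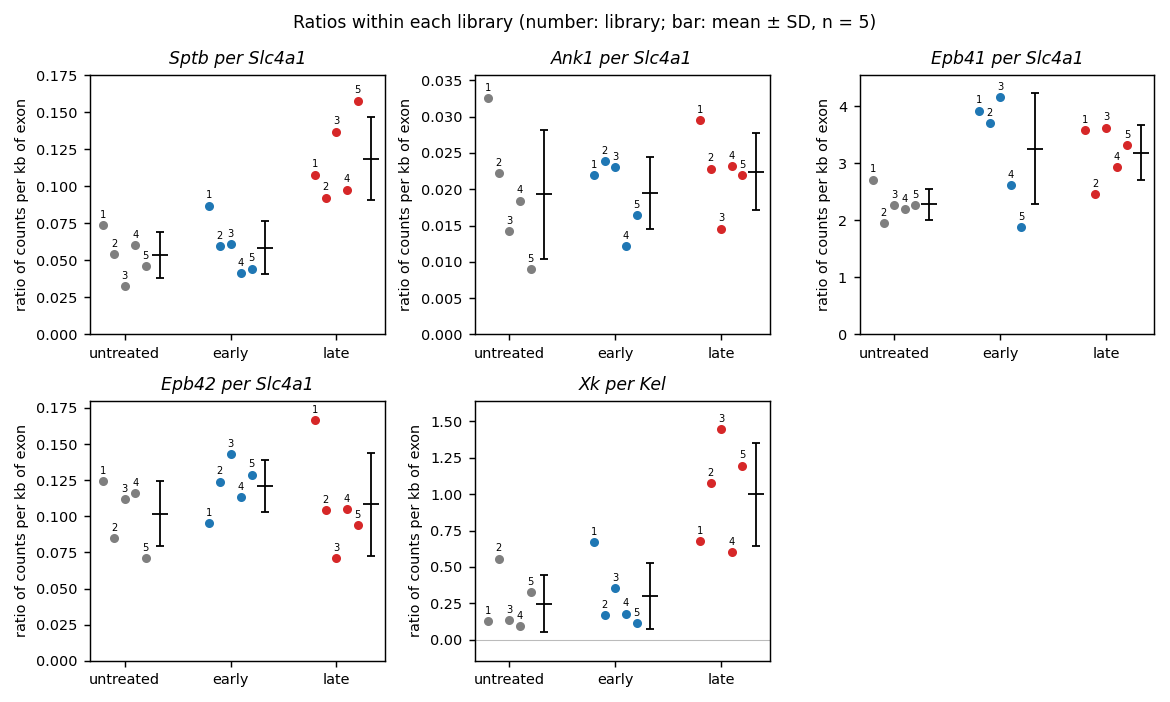
Ratios of counts per kilobase of exon between partner genes within each library (y axis, linear), by group, with the library number at each point and the mean ± SD (n = 5) as a bar. Late ND libraries lie above early ND libraries for Sptb per Slc4a1, and the groups overlap for Ank1, Epb41 and Epb42 per Slc4a1.

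Other genes of the skeleton were drawn from a list of 9. In the late ND group 4 of 9 were lower than in early ND and 0 were higher (edgeR), where 2.48% of all genes tested were called lower. Their median log2 fold change was -1.10, against 0.01 over all genes tested and -2.40 over the 7 members tested. The 4 were the adducin β chain gene Add2, which caps actin (log2 fold change -2.98, SE 0.52, adjusted p = 0.0126), the actin bundling gene Dmtn (-2.18, SE 0.45, adjusted p = 0.0225), the scaffold gene Mpp1 (-1.52, SE 0.37, adjusted p = 0.0384) and the tropomyosin gene Tpm1 (-1.10, SE 0.21, adjusted p = 0.0182). Tmod1, which caps the other end of the actin filament, had a log2 fold change of -1.20 (SE 0.41, adjusted p = 0.0988). Of their exon bases, 22.3% of Mpp1 and 24.4% of Tmod1 lie opposite exons of another gene, to which the reads could belong. Add1, Add3, Tpm3 and Actb, which are broadly expressed genes, did not pass.

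Of 19 other membrane genes, 4 were called lower in late than in early ND and 0 higher (edgeR), where 2.48% of all genes tested were called lower. The median log2 fold change was -0.39 over the 16 tested. At an unadjusted p under 0.05, 7 were lower and 2 were higher. DESeq2's Wald test called 8 lower and 1 higher, where 652 of 28650 genes were called lower and 797 higher. Ermap (-2.32, SE 0.49, adjusted p = 0.0250, edgeR) and Art4 (-1.47, SE 0.31, adjusted p = 0.0253), which both carry blood group antigens, were lower, as were the water channel gene Aqp1 (-0.95, SE 0.24, adjusted p = 0.0413) and the complement inhibitor gene Cd59a (-0.78, SE 0.21, adjusted p = 0.0488). Xk, which pairs with Kel in the membrane, had a log2 fold change of -0.32 (SE 0.19, adjusted p = 0.328), on a gene whose exons are covered for 8.28% of their bases by another gene on the opposite strand. Xk per Kel ran from 0.604 to 1.45 in late ND and from 0.116 to 0.670 in early ND libraries.

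Against untreated mice, 6 of these 28 genes were lower in late ND mice: Add2, Dmtn, Tmod1, Mpp1, Bsg and Cd59a (edgeR, where 2.01% of all genes tested were called lower). With 1 library left out at a time, this count ranged from 0 to 9. Bsg, the basigin gene, was named here for its place among these 6. Early ND and untreated mice differed in 0 of the 28 in edgeR, and 1 had an unadjusted p under 0.05.

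None of the relatives of the members in other tissues was called in edgeR. Of 17 paralogs, among them the nonerythroid spectrins Sptan1 and Sptbn1, the anion exchanger Slc4a2 and the 4.1 family members Epb41l1 and Epb41l2, 10 were tested and 0 were called between late and early ND (edgeR), with 1 at an unadjusted p under 0.05. Their log2 fold changes ran from -0.42 to 0.35 in edgeR. DESeq2's Wald test called 1 of them lower. Sptbn1 was the nearest to the threshold, at -0.42 (SE 0.11, adjusted p = 0.0506).

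**Figure D5:**
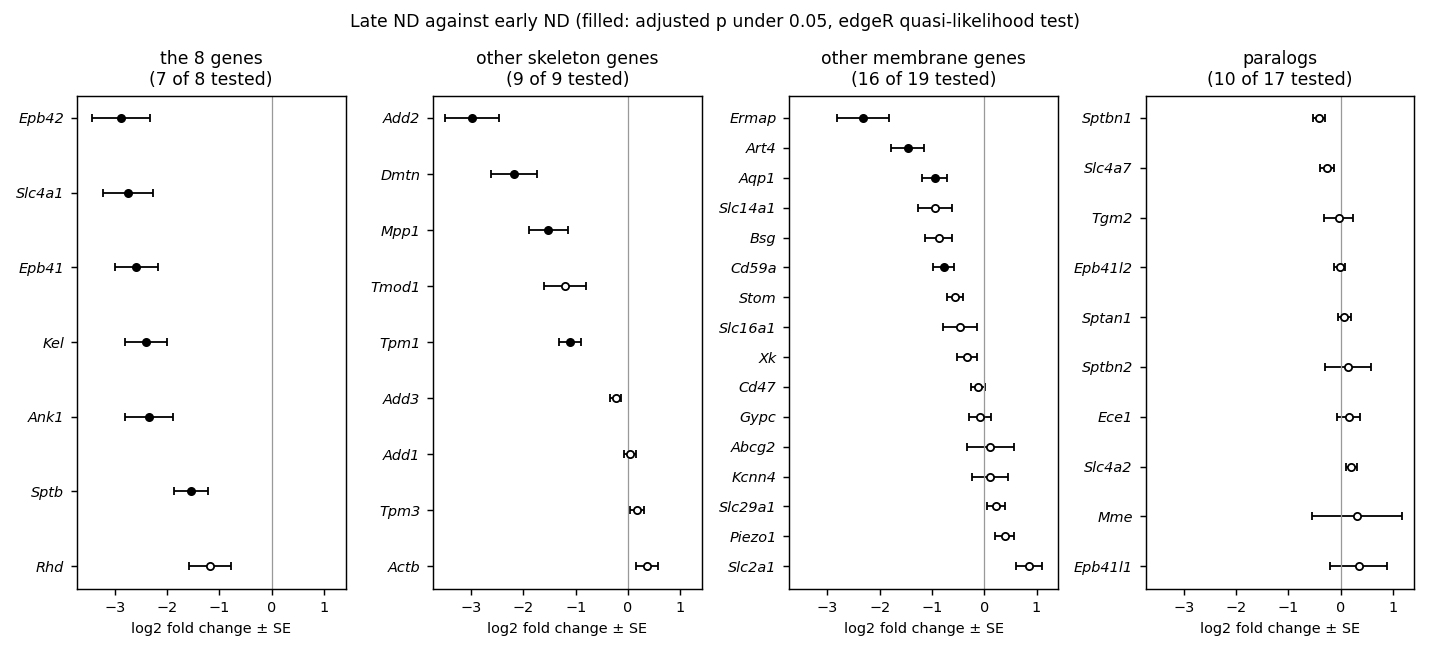
Log2 fold changes ± SE (x axis) of late against early ND for the members, other skeleton genes, other membrane genes and paralogs that were tested; filled points passed an adjusted p of 0.05 in edgeR's quasi-likelihood test. Filled points number 6, 4, 4 and 0 from left to right, and each lies at a negative value.

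Hemoglobin and heme synthesis genes gave further values for red cell RNA. The 4 adult hemoglobin genes had log2 fold changes from -2.44 to -1.69 between late and early ND, of which Hbb-bt passed (-2.44, SE 0.60, adjusted p = 0.0392, edgeR) and the other three did not. Of 8 heme synthesis genes 2 were lower, Alas2, the first enzyme of the path in red cells, at -2.18 (SE 0.44, adjusted p = 0.0215), and Fech, the last, at -2.58 (SE 0.38, adjusted p = 0.0119), and 1, Ppox, was higher. Of the exon bases of Ppox 53.8% lie opposite exons of other genes, B4galt3 among them, so its reads could belong to those, and for Alas2 the share was 13.8%. Of 8 transcription regulators of red cell genes 7 were tested, and 1, Lmo2, was lower, at -1.13 (SE 0.26, adjusted p = 0.0317, edgeR). Of all 13315 genes tested in this comparison, 330 were called lower and 333 higher. Klf1 was not tested.

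The genes whose log2 levels followed the mean of the 8 members most closely over the 15 libraries, out of 13421 genes, were Tax1bp1 (Pearson r = 0.987), Car2 (0.985), Serinc1 (0.984), Specc1 (0.984) and Ghitm (0.983). Car2 is carbonic anhydrase 2, an abundant red cell enzyme, and Tax1bp1 is an autophagy adaptor. The 15 points share the TMM scale and fall into groups that differ in level, so these r are a description of likeness only.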

How the data were processed

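Paired reads were sequenced from peripheral blood RNA of 15 mice. The authors aligned reads with STAR 2.7.9 to GRCm39 (the submitters' processing notes also name mm10), sorted them with SAMtools 1.7 and counted them with HTSeq 0.13.5. The deposited values are raw counts per gene and library. The annotation release and strand setting are not given in the sources used here. Counter rows that name no gene were left out of library sizes. Read pairs that aligned to several places are not in the gene counts. They made up 44.1% to 57.9% of pairs in late ND libraries. The range was 66.4% to 75.2% in early ND and 64.8% to 73.1% in untreated libraries. The part of this difference in the results, hemoglobin counts among them, was not tested.

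Of 55416 identifiers 54749 matched GENCODE M39. Groups came from the labels. Each pair of groups was fitted alone with edgeR 4.0.16 (filterByExpr, TMM, quasi-likelihood test, Benjamini-Hochberg, threshold 0.05) in R 4.3.3; DESeq2 1.42.0 was an alternative. Fits relative to Slc4a1 or hemoglobin used those counts as the library scale. Intervals are 1.96 SE. Library measures were compared by exact permutation tests. The tests were checked on simulated data. The study's own analysis used DESeq2.

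The members and lists were chosen with earlier results of these data known. Besides the members, the text names Dmtn, Add2, Tmod1, Xk, Ermap, listed genes past the threshold in late against early ND, and the 5 genes most like the members; Bsg, the broadly expressed skeleton genes, the paralogs and Klf1 were named as examples after their values were seen; some listed genes are not reported here. Blood was drawn per animal; within-group correlations of log2 CPM were 0.916 to 0.985, and 0 pairs were identical.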

Additional observations from a re-analysis of the deposited data

Results flagged for a closer look

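Dixon's test was applied to the 5 libraries of each group for each of the 8 genes, 24 tests in all, and 0 libraries lay far enough from the rest of their group to be marked.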

How the results depend on the processing

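Late against early ND, the count of 8 genes called lower went from 6 to 0 without the libraries poor in 18S and ranged from 3 to 7 with 1 library left out. Late ND against untreated, it went from 5 to 0 without those libraries, to 8 with DESeq2's Wald test, to 8 without the libraries with skin gland RNA (an alternative chosen after seeing the data), and ranged from 0 to 8. Of the 28 other skeleton and membrane genes, the count lower in late than in early ND went from 8 to 3 with library totals, 14 with DESeq2's Wald test and 0 without the libraries poor in 18S, and ranged from 1 to 10 with 1 library left out. Against untreated it went from 6 to 1 with library totals, 10 with DESeq2's Wald test, 3 with all groups in 1 fit and 0 without the libraries poor in 18S, and ranged from 0 to 9. Leaving out libraries leaves fewer samples; the cause of the other changes was not tested.

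The count of members differing from Slc4a1 between late ND and untreated went from 1 to 0 without a filter and to 0 without the libraries poor in 18S, and ranged from 0 to 1. Late against early ND it ranged from 0 to 2 relative to Slc4a1 and from 0 to 1 relative to hemoglobin.

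Replicate numbers were not taken as pairs, since in no comparison did every same-numbered pair correlate above 0.1: same-numbered deviations correlated from -0.17 to 0.46 (late and early ND), 0.03 to 0.58 (late ND and untreated) and -0.29 to 0.08 (early ND and untreated). For late ND and untreated, 4 of 5 pairs were above 0.1 and 3 of 5 libraries correlated best with their own number, a hint from the data and not the design. With the replicate number as a block, the other skeleton and membrane genes lower in late than in early ND numbered 5, and members differing from Slc4a1 against untreated numbered 2. The block turned the early against untreated log2 fold changes of Sptb, Ank1 and Slc4a1 to 0.15, 0.084 and 0.048, and that of Epb41 relative to Slc4a1 (late against early) to 0.011.

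Other reversed values lay near 0. Early against untreated, Slc4a1 was 0.075 and Rhd 0.0009 with library totals, Epb41 -0.081 and Epb42 -0.20 without the libraries poor in 18S, and Epb41 -0.014 and Epb42 -0.069 without those with skin gland RNA. Without the libraries poor in 18S, Epb41 and Epb42 relative to Slc4a1 (late against early) were 0.0096 and 0.009, and Epb41 relative to hemoglobin (late against untreated) -0.027. With 1 library left out, early against untreated ranges that crossed 0 were -0.52 to 0.37 for Sptb, -0.66 to 0.43 for Ank1, -0.32 to 0.33 for Slc4a1, -0.081 to 0.68 for Epb41, -0.21 to 0.55 for Epb42, -0.41 to 0.21 for Rhd and -0.43 to 0.12 for Kel. Relative to Slc4a1 they were -0.18 to 0.072 for Epb41 (late against early) and -0.12 to 0.20 for Epb42 (late against untreated), and relative to hemoglobin (late against untreated) -0.15 to 0.27 for Epb41 and -0.39 to 0.053 for Kel.

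Library totals in place of TMM moved the median over all genes tested to a log2 fold change of 0.86 (late against early) and 0.91 (late against untreated). In these fits 5 and 5 of the 8 members stayed lower, where 137 of 13315 and 90 of 13547 genes were called lower. Rhag rests on at most 20 counts per library.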
